A study of Brassica rapa with 12 samples.

Results

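Of 583 genes that were abundant in every group of *Brassica rapa* seedlings, 6 had similar mean levels in both lines and under both light treatments. They were Bra001041, Bra013476, Bra009805, Bra011930, Bra021685 and Bra005242, and they are described here as candidate reference genes. A gene was chosen when its mean level was at least 100 CPM in all 4 groups and its highest group mean was at most 1.2 times its lowest. CPM is the count of a gene relative to the total of its library, after edgeR's TMM scaling, which centres a trimmed mean of the log ratios between libraries. Similar means are thus similar relative to that centre, in data where most features differed between light and dark. The choice was made among 31239 features tested out of 42186 in the count tables, and only IDs that start with Bra could qualify. Because the genes were chosen by these group means over all 12 libraries, their similar means are a description and not a finding. The rule set no limit on the spread between replicates, although a narrow spread makes similar means more likely.

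A reference gene is a gene whose transcript serves as the yardstick for others, for example in quantitative PCR, and it is useful only if its level stays the same under the conditions compared. Genes of the cytoskeleton, protein synthesis and protein turnover are the usual choices in plants. The change from dark to light is a demanding case, because a seedling kept in the dark has no photosynthesis and rebuilds much of its gene expression when it turns green. CPM is not divided by transcript length, so the level threshold admits long transcripts more easily than short ones.

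The samples were whole 1-week-old seedlings of Chiifu, a Chinese cabbage line, and of LP08, a second line in a study that sets vegetable-type against oilseed-type plants. Days of 16 h light and 8 h darkness were given to the light groups, and 24 h darkness to the dark groups. Each of the 4 groups, dark Chiifu, light Chiifu, dark LP08 and light LP08, had 3 libraries, with 48773088 to 71764062 counts per library. How long the darkness lasted is not stated. The labels name no transgene or other agent and do not say whether replicates were separate plants, so the spread between libraries may be partly technical.

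The count tables and the reference table used here pair none of the 6 IDs with a gene name, so no role is given for them. For the same reason whole-seedling markers could not be looked up, and it was not tested whether any of the 6 shares reads with a near-identical copy. In whole seedlings, a change in the level per cell and a change in the make-up of the tissue cannot be told apart. A total that stays level may likewise hold opposite changes in different organs. Chiifu dark replicate 3 and LP08 light replicate 3 had the lowest mean correlation with their own group across genes, 0.965 and 0.972. The other 10 had 0.973 to 0.988, so LP08 light replicate 3 was close to the next lowest, Chiifu dark replicate 2 (0.973). Chiifu dark replicate 3 also had the largest share of counts in ENSRNA features, at 2.90%, against 0.557% to 1.79% elsewhere. Their part in the results was not tested. Where either was the highest or lowest of the 12 libraries for a gene, the ratio and the CV of that gene are also given without it. Such a CV lacks an extreme value and rests on fewer libraries in that group.

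The 1.2-fold limit was met by few abundant genes, with lower counts for light against dark than for the line comparison. Among the 583 genes, light and dark means were within 1.2-fold for 96 Chiifu genes (16.5%) and for 101 LP08 genes (17.3%), and for 39 in both lines. Between the lines, 232 (39.8%) were within 1.2-fold in light and 225 (38.6%) in the dark, and 93 in both. All 4 of these comparisons were within the limit for 10 genes, and all 4 groups together for the 6 genes, which are 1.03% of the 583. The share was also small at lower levels. It was 161 of 9147 genes (1.76%) where the lowest group mean was 10 to under 100 CPM. At 1 to under 10 CPM it was 93 of 10970 (0.848%). The number that met the rule was 10 without Chiifu dark replicate 3, Chiifu light replicate 1 or Chiifu light replicate 2, and 6 to 8 without any other single library. Without both Chiifu dark replicate 3 and LP08 light replicate 3, an alternative chosen after seeing the data, it was 11. Of the 6 genes, 4 were among them.

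Bra001041, Bra013476 and Bra009805 had the narrowest spread between replicates. The level of Bra001041 in replicates 1, 2 and 3 was 120.2, 115 and 131 CPM in Chiifu kept in the dark, 115, 134 and 109.9 CPM in Chiifu given light, 119, 101 and 100.5 CPM in LP08 kept in the dark, and 101, 97.4 and 111 CPM in LP08 given light. Its lowest values lay in LP08 and its highest in Chiifu, with overlap between the lines under each treatment. The group means were 122 ± 7.94, 119.9 ± 12.9, 107 ± 10.6 and 103 ± 6.87 CPM in the same order (SD, n = 3), and the highest was 1.18 times the lowest. The pooled within-group coefficient of variation (CV, the SD as a percentage of the mean, combined over the 4 groups as a root mean square) was 8.67%.

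Bra013476 differed most by light in its means. Its level was 132, 140.2 and 122 CPM in Chiifu kept in the dark, 137, 154 and 159 CPM in Chiifu given light, 119, 137 and 128 CPM in LP08 kept in the dark, and 137, 170.4 and 127 CPM in LP08 given light. Light libraries lay somewhat higher in both lines, but light and dark overlapped in each. The light means were 150.0 ± 11.5 CPM in Chiifu and 145 ± 22.6 CPM in LP08, against dark means of 131 ± 9.13 CPM (Chiifu) and 128 ± 9.29 CPM (LP08) (SD, n = 3), with a pooled CV of 10.1%. The ratio of the highest to the lowest mean was 1.17.

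The third of these, Bra009805, was at 202, 169 and 208 CPM in Chiifu kept in the dark, 219.9, 183 and 220.2 CPM in Chiifu given light, 213, 174 and 217 CPM in LP08 kept in the dark, and 202, 224 and 237 CPM in LP08 given light. All groups overlapped, and in 3 of the 4 groups the second replicate was the lowest. Its group means ran from 193 ± 20.8 CPM in dark Chiifu to 221 ± 17.6 CPM in light LP08 (SD, n = 3), a ratio of 1.15, and its pooled CV was 10.3%. LP08 light replicate 3 was its highest library, and without it the ratio was 1.1 and the pooled CV 10.2%. It met the rule in each of the 12 repeats that left out 1 library, as did Bra011930, whereas Bra001041 met it in 8 and Bra013476 in 10, with ratios of up to 1.24 and 1.22 in the others.

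Bra011930 had the most similar group means, and nearly all of its spread came from dark Chiifu. Its level was 253, 275 and 172 CPM in Chiifu kept in the dark, 235, 225 and 234 CPM in Chiifu given light, 229.7, 233 and 249 CPM in LP08 kept in the dark, and 234, 215 and 251 CPM in LP08 given light. Chiifu dark replicate 3 was the lowest of the 12 libraries and the other dark Chiifu libraries were the highest. The means were 233 ± 54.2, 231 ± 5.63, 237 ± 10.1 and 233 ± 18.2 CPM (SD, n = 3), so the ratio of the highest to the lowest was 1.02, while the CV was 23.3% in dark Chiifu and 2.43% to 7.80% in the other groups. Without Chiifu dark replicate 3 the ratio was 1.14, the CV in dark Chiifu was 5.77% and the pooled CV fell from 12.5% to 5.43%. Without both Chiifu dark replicate 3 and LP08 light replicate 3 the ratio was 1.18.

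The same library was the lowest for Bra021685. This gene was at 126, 147 and 76.1 CPM in Chiifu kept in the dark, 113, 119 and 120.2 CPM in Chiifu given light, 115, 126 and 147 CPM in LP08 kept in the dark, and 114, 123 and 138 CPM in LP08 given light. Dark Chiifu thus held both the lowest and 1 of the highest values. Group means were 116 ± 36.5, 118 ± 3.56, 129 ± 16.5 and 125 ± 12.3 CPM (SD, n = 3), with a ratio of 1.11 and a pooled CV of 17.7%. Without Chiifu dark replicate 3 the ratio was 1.16 and the pooled CV 9.90%. Leaving out Chiifu dark replicate 2 raised the ratio to 1.28, past the limit, and the gene met the rule in the other 11 such repeats.

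Bra005242 met the rule through values that offset each other. Its level was 158, 137 and 336 CPM in Chiifu kept in the dark, 210.2, 194 and 223 CPM in Chiifu given light, 232, 261 and 197 CPM in LP08 kept in the dark, and 271, 243 and 117 CPM in LP08 given light. For this gene the libraries with the lowest mean correlation with their own group were at the extremes. Chiifu dark replicate 3 was the highest of the 12 libraries and LP08 light replicate 3 the lowest. The group means were nevertheless 210.2 ± 109.0, 209 ± 14.5, 229.8 ± 32.3 and 210.4 ± 82.4 CPM (SD, n = 3), a ratio of 1.099, and the pooled CV was 33.4%. Without Chiifu dark replicate 3 the ratio was 1.56, without LP08 light replicate 3 it was 1.23, and without both it was 1.73. The pooled CV was 21.7%, 27.4% and 10.01% in the same order. Without LP08 light replicate 1 it was 1.28, and the other 9 single omissions left it within the limit. With the median of each group in place of the mean it was 1.54.

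**Figure D1:**
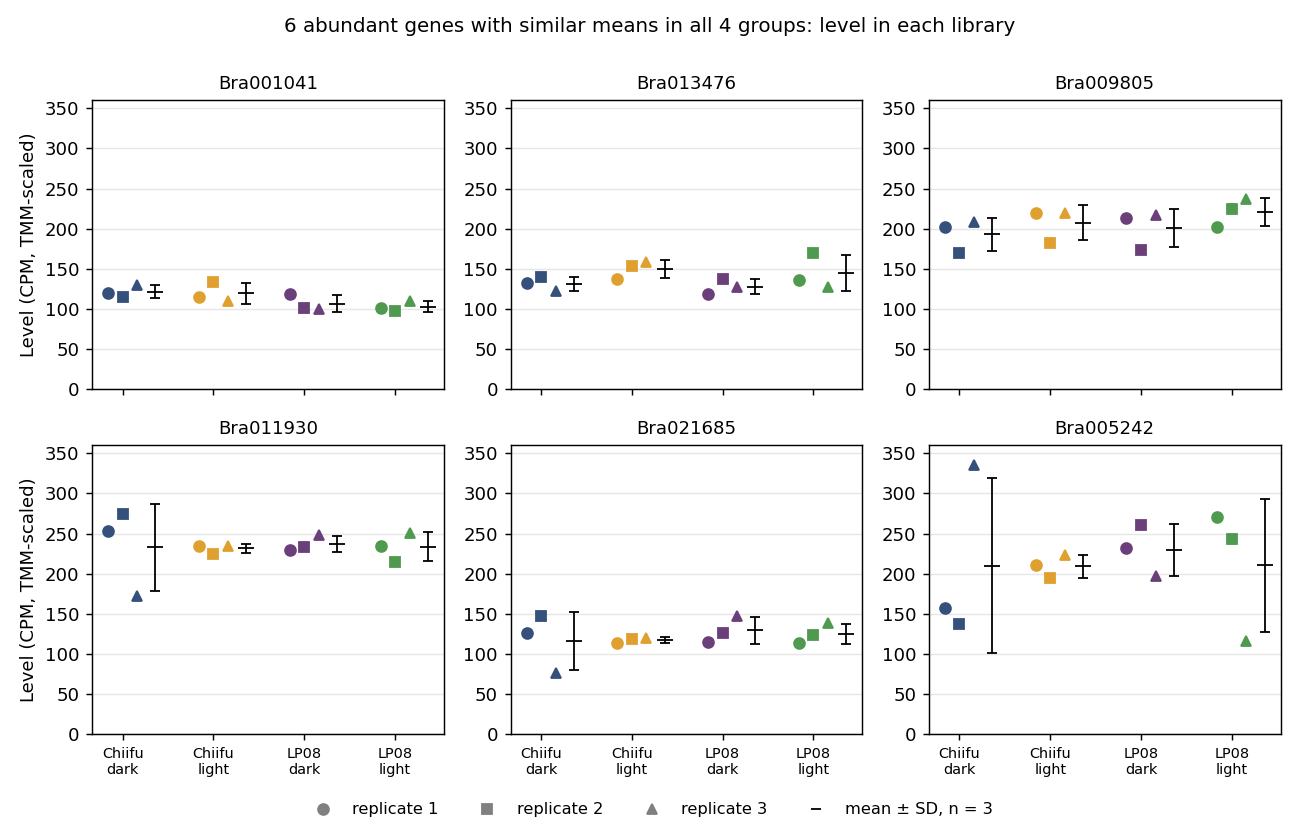
Level (CPM, TMM-scaled) of each of the 6 genes in each library, by group; symbols mark the replicate number, and the bar beside each group is the mean with its SD (n = 3). Group means differ by at most 1.2-fold within each panel, as the rule requires. Chiifu dark replicate 3 is the lowest point for Bra011930 (172 CPM) and Bra021685 (76.1 CPM) and the highest for Bra005242 (336 CPM).

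Counting error was a small part of this spread. The lowest count behind any of these values was 3802 reads (Bra021685), for which counting alone gives a CV of 1.62%, and for the other 5 genes the figure at their lowest count was 1.01% to 1.42%. The reads carry no molecular identifiers, so these figures cover counting error only.

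The replicate spread of the 6 genes lay within the range of the other abundant genes. Their median pooled CV was 11.4%, with a range of 8.67% to 33.4%, and the median of all 583 abundant genes was 13.7%. Over the 29434 tested features with reads in every group it was 18.7%. Ranked from the lowest pooled CV among the 583, Bra001041 was at 99, Bra013476 at 146, Bra009805 at 159, Bra011930 at 250, Bra021685 at 390 and Bra005242 at 557. A narrow spread also makes similar group means more likely, so the rule and this measure are not fully independent. The median CV of the 6 genes was 17.0% within dark Chiifu and 7.29% within light Chiifu, and the 583 genes had medians of 16.8% and 9.66% there. Without Chiifu dark replicate 3 the median of the 6 within dark Chiifu was 7.88%, from only the remaining libraries of that group. The median of the 583 genes was not computed without it, so 7.88% cannot be set against 16.8%. With all libraries, the median CV of the 6 was 10.9% within dark LP08 and 8.89% within light LP08, against 9.94% and 8.75% for the 583.

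**Figure D2:**
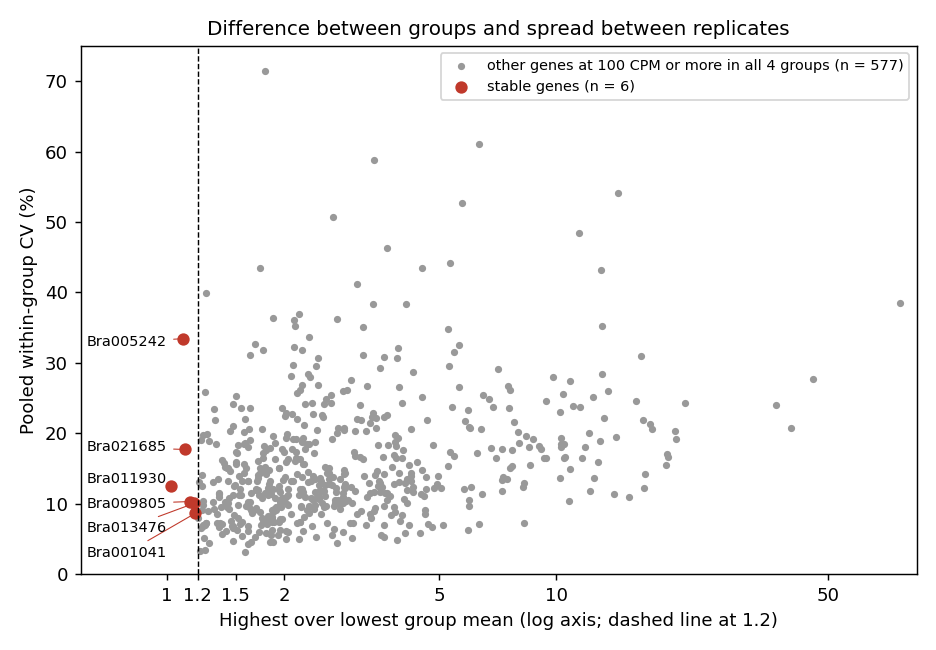
Each point is 1 of the 583 abundant genes, placed by the ratio of its highest to its lowest group mean (log axis) and by its pooled within-group CV in percent; the dashed line is the 1.2-fold limit. The 6 chosen genes (red) lie left of the line by construction and span pooled CVs of 8.67% to 33.4%, within the range of the other genes.

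When all 12 libraries were pooled, so that spread within and between groups counted alike, 4 of the 6 genes were among the steadiest abundant genes. The overall CV was 10.2% for Bra009805, 10.6% for Bra001041, 10.7% for Bra011930 and 11.2% for Bra013476, ranks 5, 6, 9 and 11 of 583. It was 15.4% for Bra021685 (rank 34) and 28.3% for Bra005242 (rank 172), against a median of 40.2%. The groups enter this measure, so it is a description. The highest library was at most 1.5 times the lowest for 19 of the 583 genes, of which 3 belong to the 6: Bra001041 (1.38), Bra009805 (1.40) and Bra013476 (1.44). For Bra011930 the ratio was 1.60, for Bra021685 1.94 and for Bra005242 2.88.

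Several genes lay close to the limits on either side. Just inside the fold limit were Bra001041 at 1.18 and Bra013476 at 1.17, and just outside were Bra012506 at 1.20422 and Bra009789 at 1.21. Bra012506 had a pooled CV of 8.04%, and its dark means were 144 ± 17.6 CPM (Chiifu) and 146 ± 9.30 CPM (LP08), above its light means of 121 ± 6.29 and 127 ± 8.13 CPM (SD, n = 3). Near the level limit, Bra001041 had its lowest mean at 103 CPM and Bra021685 at 116 CPM. Bra023337 and Bra027840 stayed outside with lowest means of 99.9 and 99.8 CPM, ratios of 1.14 and 1.13, and pooled CVs of 4.06% and 8.73%. The lowest overall CV of all 583 genes, 7.99%, belonged to Bra019446, which was picked out after its values were seen. Its ratio of 1.21 left it out, although its pooled CV was 3.28%.

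The fold changes between groups and their errors were then estimated for each gene. In edgeR's quasi-likelihood test none of the 6 was called at an adjusted p under 0.05 in any of 4 comparisons, against 67.5% of all 31239 features for light against dark in Chiifu, 68.5% for light against dark in LP08, 46.4% for LP08 against Chiifu in light and 53.3% for LP08 against Chiifu in the dark. Among the 583 abundant genes the shares were 73.1%, 73.1%, 37.0% and 42.7%. None had an unadjusted p under 0.05, and DESeq2 also called 0. The rule used these contrasts, so nothing is read from the counts. The lowest adjusted p was 0.155, for Bra001041 between the lines in light, where LP08 was lower by a log2 fold change of -0.22 (SE 0.120) with overlapping libraries.

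A gene that was not called is not shown to be unchanged. The 95% intervals of the fold changes describe how wide the estimates are, but the rule placed their centres near 0, so how many lie within a given fold was largely fixed by the choice and supports nothing about stability. Of the 24 intervals (6 genes in 4 comparisons), 0 lay wholly within 1.2-fold in either direction and 19 lay within 1.5-fold. All 4 intervals were within 1.5-fold for Bra001041, Bra013476, Bra009805 and Bra011930. For Bra021685 3 were, and LP08 against Chiifu in the dark allowed 0.822-fold to 1.51-fold. For Bra005242 none was, and light against dark in LP08 allowed 0.545-fold to 1.54-fold, although the log2 fold change was -0.13 (SE 0.343). The interval of Bra011930 for light against dark in Chiifu was 0.781-fold to 1.26-fold around a log2 fold change of -0.01 (SE 0.158). Agreement of its means to within a ratio of 1.02 is thus closer than the libraries can resolve.

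**Figure D3:**
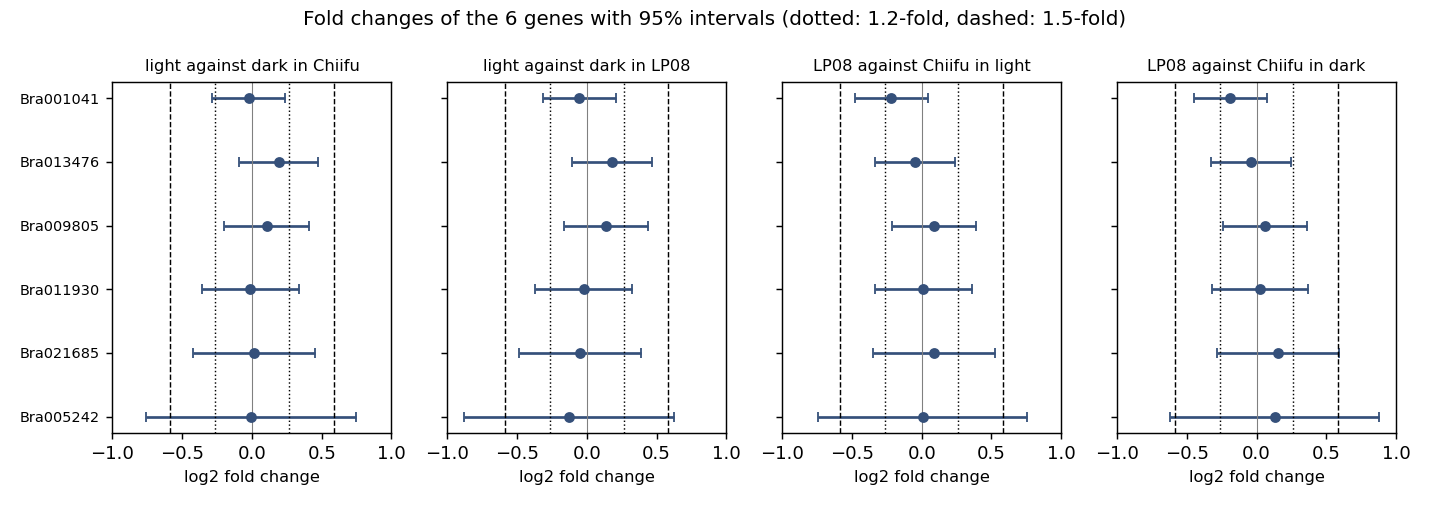
Log2 fold change of each of the 6 genes (points) with its 95% interval from edgeR (bars) in the 4 comparisons; dotted lines mark 1.2-fold and dashed lines 1.5-fold in either direction. The rule placed the points near 0. No interval lies wholly inside the dotted lines, and the 4 intervals of Bra005242 all cross a dashed line.

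Ratios between the genes do not depend on how the libraries are scaled. The choice by similar group means in these same libraries limits how far the ratios differ between groups. The values below are thus a description, and none were computed for other genes. Over the 15 pairs, the SD of the log2 ratio across the 12 libraries ran from 0.12 to 0.64, with a median of 0.26. Bra011930 and Bra021685 formed the steadiest pair (0.12), and the highest to the lowest value of their ratio differed 1.34-fold. Both were low in Chiifu dark replicate 3 and high in Chiifu dark replicate 2, and such shared movement narrows the spread of their ratio. The least steady pair was Bra021685 with Bra005242 (0.64), whose ratio ranged 5.23-fold. The geNorm stability value M, which is the mean of these SDs for 1 gene against the other 5 and is lower for steadier genes, was 0.28 for Bra013476 and Bra011930, 0.29 for Bra009805, 0.31 for Bra001041, 0.33 for Bra021685 and 0.52 for Bra005242.

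Taken as a joint yardstick, the geometric mean of the 6 TMM-scaled levels was between 95% and 105% of its average in every library. Dark Chiifu stood at 96.9 ± 0.81% and light Chiifu at 102 ± 2.08%, while dark LP08 stood at 100.6 ± 0.80% and light LP08 at 100.4 ± 4.89% (SD, n = 3). The group values follow from the rule, which set no limit on the spread of replicates within a group. Without Bra005242, the gene of widest spread, Chiifu dark replicate 3 was at 86.6% and LP08 light replicate 3 at 105%, and dark Chiifu had 97.9 ± 9.84%. Dark LP08 also spread more widely without this gene, at 98.7 ± 3.69%. The light groups did not, at 102.5 ± 1.60% in Chiifu and 101.3 ± 4.51% in LP08. The narrow range of the joint value in dark Chiifu therefore rested on Bra005242 being high where Bra011930 and Bra021685 were low.

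Which genes qualified depended on the scaling. With DESeq2 size factors 7 genes met the rule, including all 6, and with unscaled library totals 10 did, including 3 of the 6. TMM factors were 1.02 to 1.13 in dark Chiifu and 0.850 to 0.915 in light LP08, so unscaled totals lower every gene in light LP08 relative to dark Chiifu. With unscaled totals the ratio was 1.44 for Bra001041, 1.24 for Bra005242, 1.23 for Bra011930, 1.19 for Bra021685, 1.17 for Bra013476 and 1.06 for Bra009805. With upper-quartile scaling Bra009805 and Bra013476 were past the limit, at 1.23 and 1.25, and the other 4 genes at 1.08 to 1.19. Bra021685 alone met the rule under each of the 4 other scalings tried. With unscaled totals edgeR called Bra001041 lower in LP08 in light (log2 fold change -0.40, adjusted p = 0.0178, with an adjusted p of 0.155 under TMM), a comparison in which the median log2 fold change over all features was -0.19.

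Whether similar means carry over to libraries that played no part in the choice was examined in 2 ways. In the first, the rule was applied to 8 libraries, leaving out 1 replicate number, and the remaining 4 libraries (1 per group) were scaled among themselves. The 3 rounds chose 6, 8 and 12 genes, 19 different genes in all, and Bra011930 was the only one chosen in each. Of the 6 genes, 2, 3 and 4 were among those chosen, and Bra005242 was chosen in none of the rounds. Of the 26 choices, 3 had held-out libraries within 1.2-fold, 1 in each round, and the shares of all abundant genes were 2.65%, 1.21% and 1.00%. Within 1.5-fold were 17 choices (5, 6 and 6), against 14.3%, 11.1% and 7.68% of all abundant genes. Median held-out ratios were 1.30, 1.35 and 1.49 for the chosen genes, against 2.35, 2.56 and 2.93 for all abundant genes of that round. A ratio over 4 single libraries tends to be wider than one over group means of 2 or 3 libraries. It thus cannot be held against the 1.2-fold limit directly. For Bra011930 the held-out ratios were 1.13, 1.29 and 1.46. This gene is named because all 3 rounds chose it, and the libraries held out in 1 round served the choice in the others. Its ratios are thus a description.

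In the second, genes were chosen in 6 libraries and tested in the other 6 by a separate edgeR fit. Of 860 genes with at least 100 CPM in both Chiifu groups, 164 were within 1.2-fold between light and dark there. The 6 genes were among them, which the rule over all 4 groups largely fixed. In LP08 52 of the 164 (31.7%) were also within 1.2-fold, against 15.4% of all these abundant genes that were tested there, and their median fold was 1.42 against 2.02. Of the 164, 99 (60.4%) were called for light in LP08, 60 higher and 39 lower, against 75.3% of all 28855 features tested there and 78.2% of the abundant genes. In the reverse direction 49 of 151 genes chosen in LP08 (32.5%) were within 1.2-fold in Chiifu, against 15.2%, and 64 (42.4%) were called, against 65.4% of all 29828 features and 69.9% of the abundant genes.

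For the line comparison the shares were nearer to the background. Of 481 genes with similar means in both lines in light, 154 (32.0%) were within 1.2-fold in the dark, against 31.0% of all 1198 abundant genes. In the dark 196 of the 481 (40.7%) were called, against 46.6% of all features and 42.3% of the abundant genes. Without Chiifu dark replicate 1, LP08 dark replicate 2 or LP08 dark replicate 3 the number called was 120, 125 and 119, and the share of all features called dropped as well. Of 550 genes chosen in the dark, 237 (43.1%) were within 1.2-fold in light, against 38.9%, and 254 (46.2%) were called, against 55.9% of all features and 47.6% of the abundant genes. The difference between the light and the line comparisons in how far they carried over was not tested.

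**Figure D4:**
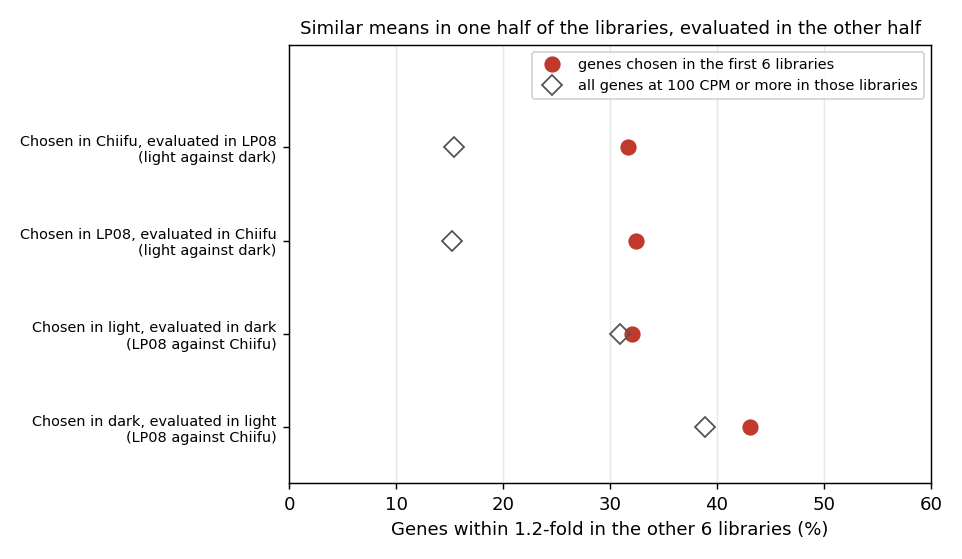
Percentage of genes within 1.2-fold in 6 libraries that were not used to choose them, for the genes chosen in the other 6 libraries (red circles) and for all genes at 100 CPM or more there (open diamonds, which include the chosen genes). Chosen genes are at 31.7% and 32.5% against 15.4% and 15.2% for light against dark, and at 32.0% and 43.1% against 31.0% and 38.9% for the line comparison.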

How the data were processed

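RNA from whole seedlings was sequenced in 12 libraries made with a stranded mRNA kit, per the labels' protocols. The authors deposited 1 table of raw read counts per library, with no normalization. FastQC, TopHat2, featureCounts and edgeR are listed, per the submitters' processing notes, with neither version nor role; build, annotation and strand setting are not given in the sources used. Of the 42186 IDs, 1 could be found among RefSeq genes (assembly CAAS_Brap_v3.01), and it is none of the 6.

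The main tool was edgeR 4.0.16 under R 4.3.3. Low features were dropped with filterByExpr by group (minimum count 10, minimum total 15), library totals were scaled by TMM (trimmed mean of M values), and the quasi-likelihood F-test in its robust form was run over all 12 libraries, with Benjamini-Hochberg adjustment over all tested features. Standard errors are those implied by the F statistic. DESeq2 1.42.0 was an alternative. The procedure was tested on simulated data. Genes planted there as stable had a narrower spread than the 6 genes, so recovery by the rule at their spread was not tested. The members and lists were chosen with earlier results of these data known. Genes are given by ID by a rule on spread, level, ratio and geNorm M, which covers all 6, and on nearness to the thresholds; Arabidopsis gene lists could not be joined to the IDs. A count of 0 allows up to 3 counts, or 0.0615 CPM (unscaled) in the smallest library. All 12 within-group pairs of libraries differed by more than counting noise (chi-square per degree of freedom at least 13.9), so none was treated as a repeat.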

Additional observations from a re-analysis of the deposited data

How the results depend on the processing

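The number of genes that met the rule was most sensitive to the thresholds. It was 31 at 50 CPM, 2 at 200 CPM, 2 at a fold limit of 1.1 and 74 at 1.5. It was 10 with library totals, 12 with upper-quartile scaling (4 of the 6 genes among them) and 11 with group medians (4 of the 6). It was 11 without both Chiifu dark replicate 3 and LP08 light replicate 3. With a limit of 1.5-fold between single libraries it was 19. These last 2 alternatives were chosen after seeing the data. Leaving out libraries singly or by replicate number gave 6 to 12, with 4 to 6 of the 6 genes among them for single libraries and 2, 3 and 4 without replicate 1, 2 and 3 of every group. The median within-group CV of the 6 genes was 9.78% to 14.2% with 1 library left out. No gene of the 6 was called under any left-out library, and 1 was called in 1 alternative, Bra001041 for LP08 against Chiifu in light with library totals. Of the 481 genes chosen in light, 119 to 253 were called in the dark over left-out libraries. The share of all features called in the dark ranged from 34.5% to 54.4% in the same fits. Of the choices made without 1 replicate number, 3 of 26 had held-out libraries within 1.2-fold under TMM. The counts were 5 of 25 with DESeq2 size factors and 4 of 27 with library totals.

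Replicates carry the numbers 1 to 3 in every group. Deviations from the group means correlated above 0.1 in 8 of 18 same-numbered pairs (range -0.25 to 0.30). Without the same figure for differently numbered pairs, this cannot decide whether the numbers mark a pairing, and none was assumed. With the replicate number as a block, 0 of the 6 genes were called in any comparison. Of the 164 genes chosen in Chiifu, 103 were then called in LP08. Of the 151 chosen in LP08, 63 were called in Chiifu. Of the 481 chosen in light, 171 were called in the dark. Of the 550 chosen in the dark, 215 were called in light. The share of all features called was lower with the block in each of these fits. For the line comparison it fell from 46.65% to 41.74% in the dark and from 55.92% to 49.43% in light. The lower counts of the line comparison are thus not read as a result about the chosen genes. With 3 libraries a group, no 95% interval of the 6 genes lay within 1.2-fold.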
